A study of Mus musculus with 10 samples.

Results

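The atrial cardiomyocyte genes described here are Myl4, Myl7, Sln, Kcnj3, Kcnj5, Kcna5, Bmp10 and Mybphl, which were chosen by gene name for their known enrichment in atrial muscle and make up 8 of the 55858 genes in the deposited table. RNA was measured by RNA sequencing in hearts of 10 mice at postnatal day 10, and all 10 carried the same genotype, labelled MCM; Chmp4bF/F. Chmp4b encodes a subunit of the ESCRT-III membrane-remodelling complex. The 5 cKO mice had received tamoxifen by subcutaneous injection at 0.1 mg/g on 2 days from postnatal day 0, and the 5 control mice had received corn oil instead. Both groups therefore carried MCM and the Chmp4bF/F alleles, and tamoxifen itself, its action on MCM and the loss of Chmp4b cannot be told apart. The cells in which MCM acts, the sex of the mice and whether atria were kept with the ventricles are not given in the sources used here.

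Atria and ventricles are built of cardiomyocytes that use different versions of the same machinery. Atrial cells carry their own myosin light chains, keep the calcium pump of the sarcoplasmic reticulum under control with sarcolipin, and end their action potentials with potassium channels in other proportions than ventricular cells. Whether the 8 genes moved together is the question asked of them. A larger or smaller share of atrial tissue in a sample would move one way those whose RNA came mainly from atrial cells. How much of each gene's RNA came from atrial cells was not measured.

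The products fall into 3 groups. Myl7 and Myl4 are the atrial regulatory and essential myosin light chains, and Mybphl is a sarcomere protein related to myosin-binding protein C. Kcnj3 and Kcnj5 are the GIRK1 and GIRK4 subunits of the channel that carries the acetylcholine-activated potassium current, and Kcna5 is the channel of the ultrarapid delayed rectifier, which in mice also serves ventricular cells. Sln is sarcolipin, an inhibitor of the calcium pump, and Bmp10 is a secreted growth factor made by cardiomyocytes.

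In GENCODE M21 on GRCm38 all 8 are protein-coding genes. Myl7 lies on the minus strand at chr11:5896637-5898782 and Myl4 on the plus strand at chr11:104550663-104595753. Kcnj3 is at chr2:55435970-55598145 (plus), Kcnj5 at chr9:32314707-32344350 (minus) and Kcna5 at chr6:126532551-126535412 (minus). Sln is at chr9:53850164-53854560, Bmp10 at chr6:87428994-87437677 and Mybphl at chr3:108364911-108380057, all on the plus strand. Antisense gene models overlap Myl4 (Gm11665, Gm22000, Gm11661 and Gm11663), Kcnj3 (Gm26794) and Mybphl (Gm12522). Whether strand was used in counting is not given in the sources used here, and reads of these pairs cannot be told apart. Gm11665, antisense to Myl4, ranged from 3.19 to 11.8 TPM in cKO and from 0.880 to 4.59 TPM in control hearts, and it was lowest among the cKO hearts in replicate 1, where Myl4 was highest.

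A promoter window of 250 bases before the annotated start was held for 7 of the 8 genes in the RefSeq table for GRCm38.p6, Sln being the one without. The motif AGATAA or TGATAA, a form bound by the cardiac GATA factors, was searched on both strands and occurred in 3 of the 7 windows, against 16.6% of all 32851 windows of that length. Those 3 are printed because the motif is shared while the levels of the genes are not: Myl7 reached 51.6 TPM in 1 library, and Bmp10 and Mybphl were near 0 in every library. The Myl7 window is chr11:5898783-5899032 on the minus strand, that of Bmp10 chr6:87428744-87428993 on the plus strand and that of Mybphl chr3:108364661-108364910 on the plus strand, each 5′ to 3′ with the motif in capitals.
Myl7: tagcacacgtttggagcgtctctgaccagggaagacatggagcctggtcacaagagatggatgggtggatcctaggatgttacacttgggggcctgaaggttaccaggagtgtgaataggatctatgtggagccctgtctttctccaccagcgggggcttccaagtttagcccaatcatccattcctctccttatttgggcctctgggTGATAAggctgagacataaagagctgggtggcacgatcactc
Bmp10: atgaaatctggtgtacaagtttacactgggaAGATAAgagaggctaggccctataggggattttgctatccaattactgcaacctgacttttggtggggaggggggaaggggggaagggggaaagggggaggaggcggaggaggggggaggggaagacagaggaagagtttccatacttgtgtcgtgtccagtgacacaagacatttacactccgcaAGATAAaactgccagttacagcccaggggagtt
Mybphl: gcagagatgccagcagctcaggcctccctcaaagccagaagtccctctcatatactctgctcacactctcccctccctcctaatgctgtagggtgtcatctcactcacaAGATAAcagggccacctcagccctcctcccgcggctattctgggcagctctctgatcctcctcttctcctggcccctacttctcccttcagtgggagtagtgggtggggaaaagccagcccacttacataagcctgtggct
The first base of the motif lies 42 bases before the start in Myl7, 219 and 33 bases before it in Bmp10, and 141 bases before it in Mybphl. Of 4 other motifs searched on both strands, AAGTG (NKX2-5) was found in 4 of the 7 windows and in 40.7% of all windows, and AGGTGT (T-box factors) in the Kcnj3 window alone and in 11.8% of all windows. The COUP-TF element AGGTCA occurred in 0 of the 7 and in 14.0% of all windows. A TATA box, spelled TATAAA, was also in 0 of the 7, and in 12.4% of all windows. These are matches of letters and not measured binding.

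Values are given as TPM, a share of all transcripts corrected for gene length, so levels of different genes can be compared. Since a rise of some genes lowers the TPM of all others, the groups were compared on 2 scales: TPM as deposited, on which the median gene was 0.63 log2 units higher in cKO, and TPM divided by a size factor per library, called relative to the median gene, on which it was 0.01 higher. Mitochondrially encoded genes held 35.5% to 41.5% of the total in the cKO libraries and 50.0% to 59.4% in the controls. Differences are in log2(TPM + 1) units, cKO minus control, tested with limma and Benjamini-Hochberg adjustment over the 13282 genes with at least 1 TPM in at least 5 libraries, with a call at an adjusted p under 0.05. The addition of 1 shrinks the differences of genes near 1 TPM, and since TPM keeps no read depth, the counting error of each value is unknown. Chmp4b, the targeted gene, was at 38.2 ± 1.42 TPM in cKO and 47.4 ± 8.61 TPM in control hearts (mean ± SD, n = 5 each). Its relative difference was -1.01 (two-sided exact permutation test, p = 0.00794, the smallest that 5 against 5 libraries allow), and as deposited it was -0.29 (exact p = 0.0476).

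The 5 genes that could be tested differed in direction. Myl7 rose in cKO hearts and Kcnj3 fell, on both scales, though each passed the minimum level only through the group in which it was high. With no minimum, Myl7 was not called relative to the median gene (adjusted p by limma = 0.0514) and Kcnj3 was (adjusted p = 1.9e-05). Kcnj5 and Kcna5 fell relative to the median gene, with differences above 0 as deposited. Myl4 was called higher as deposited and was not called relative to the median gene. Sln, Mybphl and Bmp10 were at or near 0 in every library and were not tested.

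Of the 8 genes, 5 passed the minimum of 1 TPM. Relative to the median gene 1 member was called higher, 3 were called lower and 1 was not called, where 41.6% of all tested genes were called, 20.8% higher and 20.8% lower. As deposited, 2 were called higher, 1 lower and 2 were not called, where 80.0% of all tested genes were called, 76.5% higher and 3.46% lower. The groups did not overlap for 4 members relative to the median gene (31.3% of all tested genes, 15.8% higher and 15.5% lower) and for 3 as deposited (64.4% of all, 62.5% higher and 1.92% lower). With a background of this size, the counts alone do not set the members apart. The same shares stand behind the counts of every list below.

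**Figure D1:**
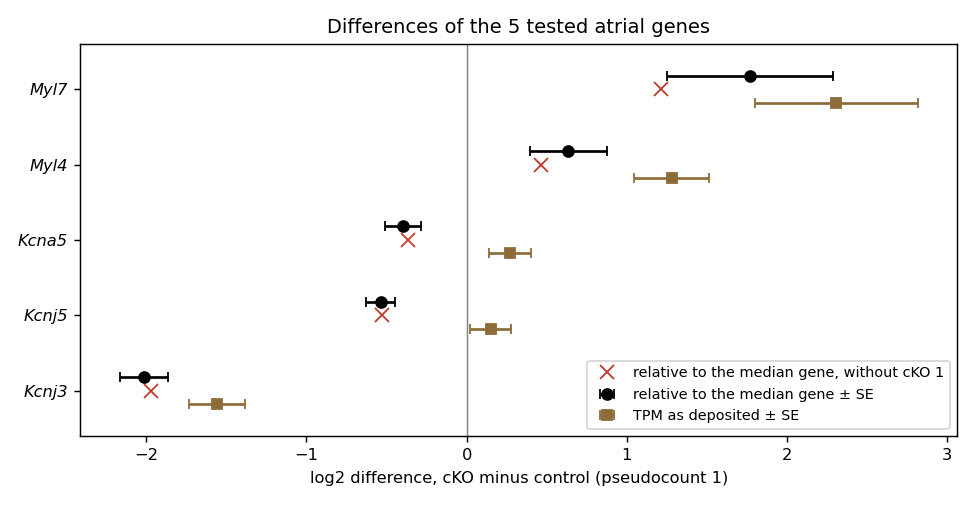
The log2(TPM + 1) difference, cKO minus control, of the 5 tested atrial genes with its standard error from limma, on both scales, with crosses for the relative value without cKO replicate 1. Myl7 lies above 0 and Kcnj3 below 0 in every version, while Kcnj5 and Kcna5 lie below 0 relative to the median gene and above 0 as deposited.

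Myl7, the atrial regulatory light chain, measured 51.6, 5.55, 8.77, 3.501 and 6.50 TPM in cKO replicates 1, 3, 5, 6 and 7, and 1.57, 0.591, 0.638, 1.37 and 1.42 TPM in control replicates 4, 6, 8, 9 and 13. Every cKO heart was above every control heart, and cKO replicate 1 was far above the other cKO hearts. The group means were 15.2 ± 20.4 TPM and 1.12 ± 0.464 TPM (SD, n = 5 each), so the spread within cKO exceeded its mean, and the group medians differed 4.73-fold as deposited. The relative difference was 1.77 ± 0.52 (SE; limma adjusted p = 0.0167), and as deposited it was 2.31 (adjusted p = 0.00102). Without cKO replicate 1 the remaining 4 cKO hearts had a mean of 6.08 ± 2.19 TPM, still above every control heart, and the relative difference was 1.21 (adjusted p = 0.00285).

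The sex of the mice was uneven between the groups by their sex-linked genes. Xist, expressed from the inactive X chromosome of females, was at 47.6 to 65.9 TPM in cKO replicates 1, 5 and 7 and at no more than 0.12 TPM in the other 7 libraries, all 5 controls among them. Those 3 hearts had the 3 highest Myl7 values and also the 3 highest Myl4 values. They also had the 3 lowest Kcnj3 values. With the Y-linked gene Ddx3y as a covariate the relative Myl7 difference was 0.90 (limma adjusted p = 0.306). Over the remaining 2 cKO hearts, at 3.501 and 5.55 TPM, it was 0.92 (adjusted p = 0.0502), and as deposited 1.39 (adjusted p = 0.000938). For Myl4 the same 2 cKO hearts gave a relative difference of 0.24 (adjusted p = 0.548) and 0.83 as deposited (adjusted p = 0.00874). For Kcnj3 the relative difference was -1.74 with the covariate (limma adjusted p = 5.43e-05) and -1.74 over the same 2 cKO hearts (adjusted p = 0.000303). The part of sex in the Myl7, Myl4 and Kcnj3 differences was not tested beyond these fits.

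Myl4, the atrial essential light chain, measured 20.7, 7.13, 11.2, 9.58 and 13.2 TPM in cKO replicates 1, 3, 5, 6 and 7, and 6.51, 3.89, 4.33, 4.09 and 2.86 TPM in control replicates 4, 6, 8, 9 and 13. As deposited the groups did not overlap, with cKO replicate 1 the highest and control replicate 4 the closest to the cKO hearts. The means were 12.4 ± 5.18 TPM and 4.34 ± 1.34 TPM (± SD of 5 hearts each), a difference of 1.28 (limma adjusted p = 0.000264). Once scaled to the median gene the groups overlapped, since control replicate 4 stood at 9.09, above the cKO replicates 3, 5 and 6. On that scale the difference was 0.63 ± 0.24 (SE) with an adjusted p of 0.0516, and it was 0.47 without cKO replicate 1 (adjusted p = 0.113). Its call therefore turned on the scaling and on single libraries.

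**Figure D2:**
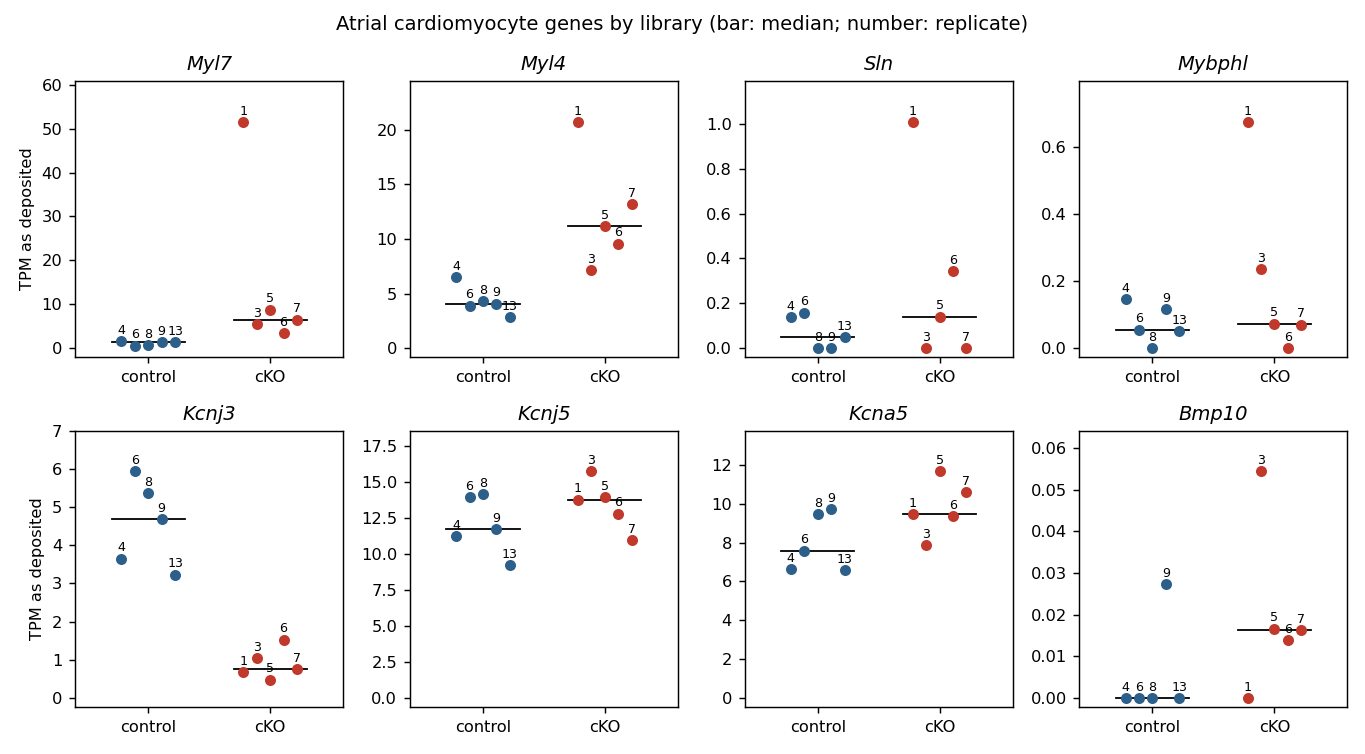
TPM as deposited of each atrial gene in each heart, with 1 point per library, numbered by replicate, and the group median as a line. Myl7 shows replicate 1 at 51.6 TPM above the other cKO hearts at 3.501 to 8.77, Kcnj3 shows all cKO hearts below all controls, and Sln, Mybphl and Bmp10 stay at or below 1.01 TPM.

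In muscle these atrial chains share their sarcomere with far more abundant ventricular ones. Myl2, the ventricular regulatory chain, was at 12874 to 16517 TPM in cKO and 11093 to 14178 TPM in control hearts. Myl7 amounted to 0.0236% to 0.401% of Myl2 in cKO and to 0.00417% to 0.0138% in control hearts, with replicate 1 at 0.401% and the next cKO heart at 0.0612%. Myl4 amounted to 0.156% to 0.492% of Myl3, the ventricular essential chain, in cKO and to 0.0666% to 0.141% in control hearts. Neither share overlapped between the groups, and in all 10 hearts the atrial chain stood below 1% of its ventricular counterpart. The labels name the heart with no chamber, and the atrium-defining genes Sln, Mybphl and Bmp10 did not exceed 1.01, 0.677 and 0.0544 TPM in any library. Myl2 fell by 0.50 (limma adjusted p = 0.00432) and Myl3 by 0.90 (adjusted p = 3.19e-05) relative to the median gene, while as deposited Myl2 differed by 0.24 (adjusted p = 0.0562) and Myl3 by -0.16 (adjusted p = 0.189).

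Among all 11 myosin light chain genes, Myl7 was the only one called higher relative to the median gene, 5 were called lower and 5 were not called, with a median of -0.22 against 0.01 over all genes tested. Myl7 passed the minimum only through cKO, where it was high. Its call was absent with no minimum (limma adjusted p = 0.0514) and with the Ddx3y covariate (limma adjusted p = 0.306). As deposited 6 of the 11 were called higher and 1 lower. Over all tested genes 20.8% were called in each direction relative to the median gene, and 76.5% higher and 3.46% lower as deposited. The chain furthest below 0 was Myl1, the skeletal fast essential chain, at 9.63 TPM in cKO and 22.1 TPM in control hearts (relative difference -1.82, limma adjusted p = 2.63e-06). Myl12b, a non-muscle regulatory chain, differed by -0.45 on the same relative scale (adjusted p = 0.00574) and by 0.28 as deposited (adjusted p = 0.0536).

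Sln measured 1.01, 0, 0.141, 0.345 and 0 TPM in cKO replicates 1, 3, 5, 6 and 7, and 0.139, 0.159, 0, 0 and 0.0493 TPM in control replicates 4, 6, 8, 9 and 13. It was listed at 0 in hearts of both groups, the groups overlapped, and cKO replicate 1 was again the highest. Phospholamban, encoded by Pln and the ventricular counterpart of sarcolipin, fell by 0.96 relative to the median gene (adjusted p by limma = 1.63e-05) and differed by -0.22 as deposited. Atp2a2, the cardiac calcium pump that both inhibit, averaged 1111 TPM in cKO and 1632 TPM in control hearts and fell on both scales, by 1.30 relative to the median gene (adjusted p = 1.3e-06) and by 0.55 as deposited. Of the 7 genes for the pump and its small regulators, 4 were tested, and Atp2a2 and Pln were the 2 called relative to the median gene, both lower. As deposited 1 of the 4 was called higher and 1 lower.

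Mybphl measured 0.677, 0.237, 0.0737, 0 and 0.0702 TPM in cKO replicates 1, 3, 5, 6 and 7, and 0.145, 0.0552, 0, 0.117 and 0.0515 TPM in control replicates 4, 6, 8, 9 and 13. Only cKO replicates 1 and 3 exceeded the highest control, and the groups overlapped. Mybpc3, the cardiac member of the same family and a thick-filament protein, was at 727 ± 10.2 TPM in cKO and 618 ± 55.6 TPM in the control hearts (SD, n = 5 each). It fell by 0.50 relative to the median gene (adjusted p by limma = 7.05e-05) and was higher by 0.24 as deposited (adjusted p = 0.0163). In this family of 5 genes 3 were tested, of which Mybpc3 and Mybpc2 (-0.79) were called lower relative to the median gene and none higher.

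Bmp10 measured 0, 0.0544, 0.0166, 0.0139 and 0.0162 TPM in cKO replicates 1, 3, 5, 6 and 7, and 0.0273 TPM in control replicate 9 with 0 in the other 4 controls. All 10 values lie close to 0 and the groups overlapped, and cKO replicate 1, which was highest for Myl7, Myl4, Sln and Mybphl, was listed at 0. Gdf2, which encodes BMP9, the ligand closest to BMP10, did not exceed 0.0217 TPM in cKO and 0.0409 TPM in control hearts. Of the 16 genes of BMP9 and BMP10 signalling, 14 were tested, with 4 called higher, 4 lower and 6 not called relative to the median gene (median -0.05), and 12 higher and 1 lower as deposited. Shares over all tested genes were 20.8% in each direction relative to the median gene, and 76.5% higher and 3.46% lower as deposited. Id1, a direct target of BMP signalling, fell by 1.12 (limma adjusted p = 5.56e-06) and Hey1 by 0.88, while Id2, another Id family member, rose by 1.01 and Smad6, an inhibitor of the pathway, by 0.87, all relative to the median gene.

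Kcnj3 measured 0.665, 1.03, 0.477, 1.53 and 0.762 TPM in cKO replicates 1, 3, 5, 6 and 7, and 3.65, 5.94, 5.36, 4.68 and 3.23 TPM in control replicates 4, 6, 8, 9 and 13. Every cKO heart was below every control heart, and cKO replicate 1 lay inside the range of the other cKO hearts. The means were 0.893 ± 0.408 TPM and 4.57 ± 1.13 TPM (SD, n = 5 each), and the control median was 6.14 times the cKO median. Kcnj3 fell by 2.01 ± 0.15 relative to the median gene (SE; limma adjusted p = 1.71e-06) and by 1.56 as deposited (adjusted p = 5.33e-06). As deposited 3.46% of the tested genes were called lower. Kcnj3 passed the minimum level only through the control hearts, where it was high, so that share does not measure how rare its fall is.

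Kcnj5, whose product joins that of Kcnj3 in the same channel, measured 13.8, 15.8, 14.0, 12.8 and 10.96 TPM in cKO replicates 1, 3, 5, 6 and 7, and 11.3, 14.0, 14.2, 11.7 and 9.26 TPM in control replicates 4, 6, 8, 9 and 13. As deposited the groups overlapped over most of their range, with means of 13.5 ± 1.76 TPM and 12.1 ± 2.05 TPM (SD, n = 5 each) and a difference of 0.15 (limma adjusted p = 0.285). Scaled to the median gene, every cKO heart, at 8.70 to 12.0, was below every control heart, at 13.2 to 16.7, and the difference was -0.54 ± 0.09 (SE; adjusted p = 0.000556). Kcnj3 amounted to 3.42% to 11.9% of Kcnj5 in cKO and to 32.4% to 42.5% in control hearts. The balance of the transcripts for the 2 subunits therefore did not overlap between the groups, on a measure that no scaling touches. The share of other gene pairs without overlap was not computed.

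Kcnj3 and Kcnj5 were read against the other 12 genes of the muscarinic potassium current, from the receptor to the G proteins and their regulators. Chrm2, the muscarinic receptor that opens the channel, was at 4.87 ± 1.04 TPM in cKO and 9.13 ± 1.5 TPM in control hearts and fell on both scales, by 1.43 relative to the median gene (adjusted p by limma = 3.69e-06) and by 0.79 as deposited. Gnb5 (-0.66) and Rgs6 (-0.51), which together speed the closing of the channel, were called lower relative to the median gene, and stood at 0.02 and 0.11 as deposited, neither of them called. Over all 14 genes 3 were called higher and 5 lower relative to the median gene, with a median of -0.04, and 9 higher and 2 lower as deposited. Without cKO replicate 1 the relative counts were 1 higher and 5 lower. All tested genes were called at 20.8% in each direction relative to the median gene, and at 76.5% higher and 3.46% lower as deposited.

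Kcna5 measured 9.46, 7.88, 11.7, 9.34 and 10.6 TPM in cKO replicates 1, 3, 5, 6 and 7, and 6.64, 7.58, 9.45, 9.70 and 6.59 TPM in control replicates 4, 6, 8, 9 and 13. As deposited the groups overlapped, with means of 9.79 ± 1.42 TPM and 7.99 ± 1.5 TPM (SD, n = 5 each) and a difference of 0.27 (limma adjusted p = 0.0754). Scaled to the median gene, the cKO hearts, at 5.98 to 8.66, were all below the control hearts, at 8.96 to 12.3, and the difference was -0.40 ± 0.11 (SE; adjusted p = 0.0145). With TPM recomputed over nuclear protein-coding genes it was -0.25 (adjusted p = 0.0956).

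By the median over control hearts the order was Kcnj5, Kcna5, Kcnj3, Myl4, Myl7, with Mybphl, Sln and Bmp10 below. In that order the TPM ranges of Kcnj5 and Kcna5 overlapped, as did those of Kcnj3 and Myl4, while Kcna5 lay wholly above Kcnj3 and Myl4 wholly above Myl7. In cKO hearts the order by median was Kcnj5, Myl4, Kcna5, Myl7, Kcnj3, so Kcnj3 moved from the third place to the fifth. Of neighbours in the cKO order only Kcnj3 lay wholly below the next gene, Myl7.

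The ratio of 2 genes in a library does not depend on how the library is scaled, apart from the added 1, and was taken against Myl7 for the 7 other members as log2((TPM + 1)/(Myl7 + 1)). For Kcnj3 it was -2.46 ± 1.57 in cKO and 1.40 ± 0.61 in the control hearts (SD, n = 5 each), a difference of -3.86 (two-sided exact permutation test, p = 0.00794, adjusted over the 7 ratios 0.00926). The Kcnj5 ratio differed by -2.16 and the Kcna5 ratio by -2.04, with the same exact p and adjusted p as for Kcnj3. As deposited Kcnj5 and Kcna5 themselves differed by 0.15 and 0.27 and were not called, so their ratios largely carry the Myl7 difference of 2.31, whereas the Kcnj3 ratio also carries its own fall of 1.56. For each of these 3 channels the ratio was lower in all 5 cKO hearts than in all 5 control hearts. Myl7 alone already did not overlap between the groups, and the share over the ratios of other genes was not computed. Without cKO replicate 1 the differences in the Kcnj3, Kcnj5 and Kcna5 ratios were -3.23, -1.58 and -1.44, each with an exact adjusted p of 0.00926. With 0.1 in place of the added 1 they were -5.29, -2.84 and -2.70 (exact adjusted p of 0.0111 each). No ratio to Myl7 was recomputed with the Ddx3y covariate or without the 3 cKO libraries with Xist. In both of those settings Myl7 itself was not called relative to the median gene.

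Myl4 kept closer to Myl7 than the channels did, at 0.30 ± 0.97 in cKO and 1.33 ± 0.43 in the control hearts (SD, n = 5 each). Its difference was -1.03 (exact permutation p = 0.0397, adjusted 0.0397), with overlapping groups. Leaving out any one of 7 libraries (cKO replicates 1, 3 and 5 and control replicates 4, 6, 8 and 9) ended the call. With 0.1 in place of the added 1 the difference was -1.55 (exact adjusted p = 0.0238), and without cKO replicate 1 the difference was -0.63 (exact adjusted p = 0.0714). The ratios of Sln, Bmp10 and Mybphl differed by -2.07, -2.28 and -2.16, which mirror Myl7 alone because the numerator is close to the added 1. With Myl4 in place of Myl7 as the reference, Kcnj3 differed by -2.84, Kcnj5 by -1.13 and Kcna5 by -1.01 (exact adjusted p of 0.0139, 0.0222 and 0.0278).

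**Figure D3:**
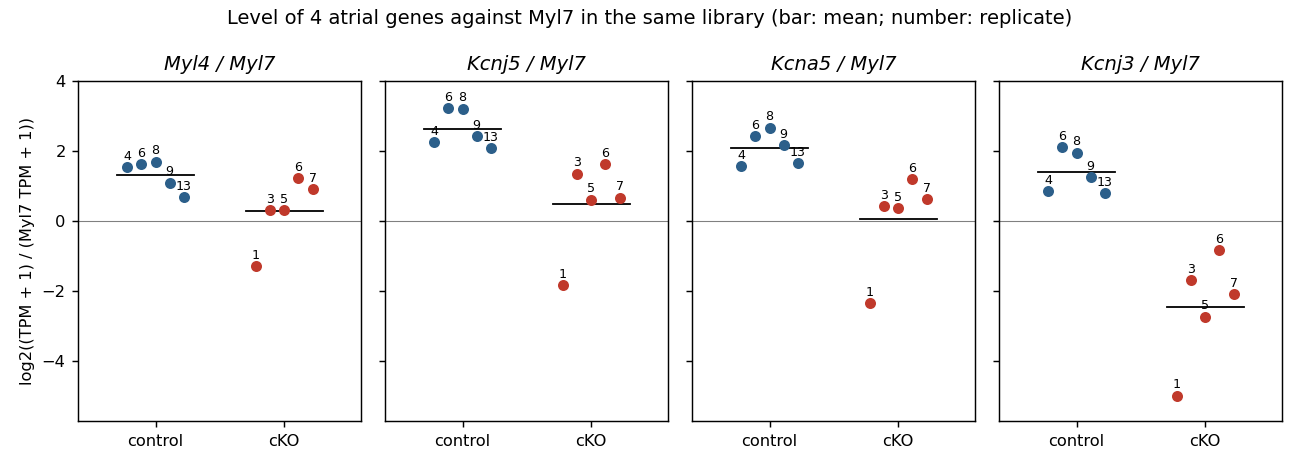
The log2 ratio of Myl4, Kcnj5, Kcna5 and Kcnj3 to Myl7, with 1 added to each TPM, in each heart, with 1 point per library, numbered by replicate, and the group mean as a line. For Kcnj3, Kcnj5 and Kcna5 all cKO hearts lie below all control hearts, and replicate 1 is the lowest cKO point in each.

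Within groups the pairs of members had correlations of both signs. With the group means removed, 11 of the 28 pairs of members had a correlation above 0 over the 10 libraries, with a median of -0.04, and 15 of 28 without cKO replicate 1 (median 0.04). As deposited it was 14 of 28 (median 0.03). Of the 10 pairs of tested members 3 were above 0 (median -0.22), and 5 as deposited. Every other pair holds Sln, Mybphl or Bmp10, which lie near 0. The share over all gene pairs was not computed. The closest pair was Myl7 and Mybphl at r = 0.89, followed by Myl7 and Sln at 0.71 and Myl7 and Myl4 at 0.68, and these were 0.54, -0.24 and 0.36 without cKO replicate 1. Myl7 and Kcnj3 ran opposite at -0.61, and at -0.91 without that library. The cKO hearts with Xist had the highest Myl7 and the lowest Kcnj3 values, and the part of sex in this opposition was not tested. These are descriptions over libraries that share their preparation, and they carry no test.

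The same measure was used to name the 3 genes most like each member among tested genes with a mean of at least 5 TPM over all 10 libraries. The highest of 8741 genes over 10 libraries are high by selection. Bmp10 and Sln, near 0 in every library, also had nearest genes at 0.91 and 0.92. The names are therefore a description and no evidence of shared regulation. Nearest to Myl7 were Zcchc14, Prkab2 and Slc44a2, each at r = 0.93. Nearest to Kcnj3 were Ptges2 (0.98), Mlycd (0.94) and Klc4 (0.92). The list for Kcnj5 held Scamp5, Mical1 and Ccdc61, that for Kcna5 Coa5, Myadm and Ocrl, and that for Myl4 Wsb2, Zdhhc1 and Man2b1. Among the members only Myl4, Myl7, Kcnj5 and Kcna5 reached that mean, so the other members could not be named as neighbours. Of the 24 nearest genes of all 8 members, 1 was itself a member, Myl7 for Mybphl, and none was without cKO replicate 1. Leaving out that library replaced all 3 genes named for Myl7 (by Mrps18b, Tubgcp4 and Psme4) and all 3 for Myl4 (by Fam120b, Banp and Hcfc1r1). Ptges2 and Mlycd stayed nearest to Kcnj3, though 9 libraries enter both measures.

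Of the 14 other atrium-enriched genes 13 were tested. Relative to the median gene 3 were called higher, 6 lower and 4 were not called (median -0.16), and as deposited 6 higher and 3 lower. All tested genes were called at 20.8% in each direction relative to the median gene, and at 76.5% higher and 3.46% lower as deposited. Calls in both directions are thus found over all genes too, and whether the list departs from these shares was not tested. Nppa, the atrial natriuretic peptide that is also made by stressed ventricular muscle, was at 1780 to 4216 TPM in cKO and 53.2 to 151 TPM in control hearts (relative difference 4.0, limma adjusted p = 1.07e-06). Dkk3, a secreted protein of the Dickkopf family, was at 44.8 ± 8.56 TPM against 5.09 ± 1.03 TPM (SD, n = 5 each; relative difference 2.23, adjusted p = 2.72e-07), and Pam, the enzyme that amidates peptide hormones and a major atrial granule protein, rose by 0.59 on that scale (adjusted p = 3.19e-05). Kcnk3, the TASK-1 potassium channel, went from 26.4 TPM in control to 14.6 TPM in cKO hearts (relative difference -1.53, adjusted p = 7.3e-07). The regulators of atrial identity in the list had relative differences of 0.04 (Tbx5), -0.07 (Nr2f2) and 0.17 (Nr2f1), none of them called.

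Among the 10 ventricle-enriched genes, all tested, 1 was called higher, 6 lower and 3 were not called relative to the median gene (median -0.69), and as deposited 3 higher and 1 lower. Irx3, a transcription factor of the conduction system, was the one that rose, from 3.52 TPM in control to 10.9 TPM in cKO hearts (relative difference 0.77, limma adjusted p = 0.000233), and Irx4, a transcription factor of ventricular muscle, fell by 0.87 on that scale. The 10 general cardiomyocyte markers were called lower in 10 of 10 cases relative to the median gene (median -0.81), among them Myh6 (-1.07), Ryr2 (-1.69) and Tnni3 (-1.46). As deposited, 2 of the 10 were called higher and 3 lower. For both lists the shares over all tested genes were 20.8% in each direction relative to the median gene. As deposited those shares were 76.5% higher and 3.46% lower. Kcnj3 at -2.01 was below all 10, whereas Kcnj5 at -0.54 and Kcna5 at -0.40 were above their median. In whole-tissue RNA, fewer cells of a type and less RNA per cell cannot be told apart. Of 7 genes of pacemaker tissue 3 were tested and 1 was called, Tbx18, higher by 0.47 relative to the median gene.

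**Figure D4:**
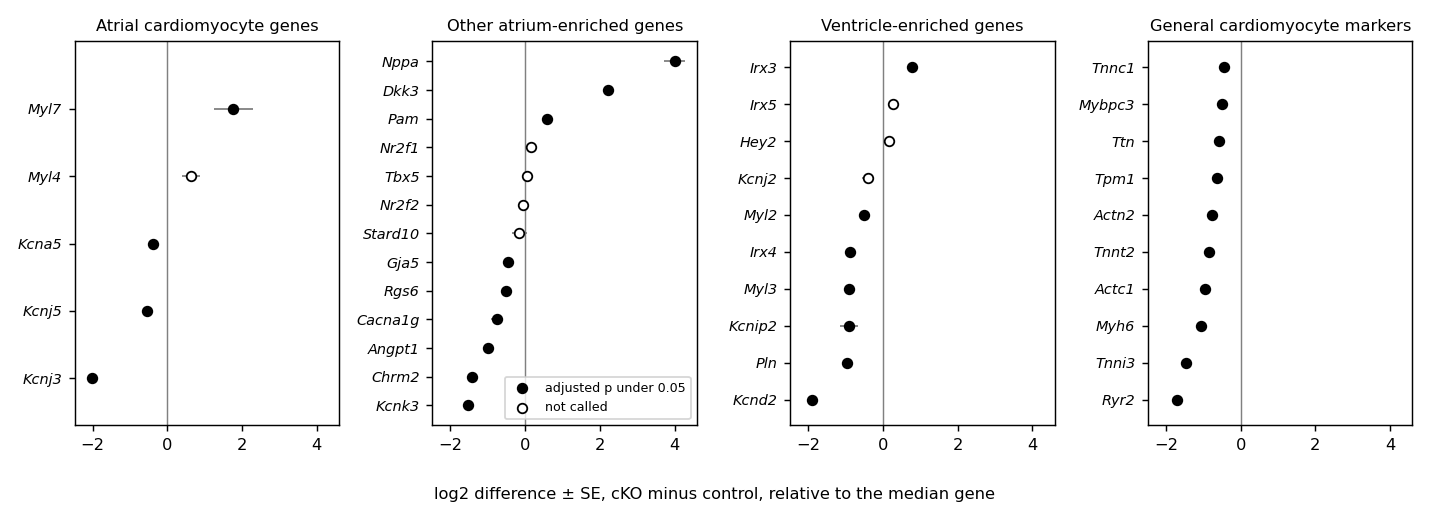
The difference in log2(TPM + 1) relative to the median gene, cKO minus control, with its standard error from limma, for each tested gene of 4 lists, filled where called at an adjusted p under 0.05. The atrial genes and the other atrium-enriched genes spread to both sides of 0, from Kcnj3 at -2.01 to Nppa at 4.0, while all 10 general cardiomyocyte markers lie below 0.

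Markers of other cells moved with the groups, and their part in the members' differences was not tested. Relative to the median gene, where 20.8% of all tested genes were called in each direction, macrophage markers were called higher in 11 of the 11 tested (of 12; median 1.83), with summed levels of 352 to 512 in cKO and 108 to 123 in control hearts, C1qa and C1qb leading with 1.95 and 2.04. Fibroblast markers were called higher in 7 of 9 and lower in 2 (median 0.56; Tcf21 0.86), and endothelial markers lower in 10 of 10 (median -0.54; Pecam1 -0.64). Endocardial markers were called higher in 2 of 4 (Nfatc1 and Plvap) and lower in 1, smooth muscle markers higher in 1 and lower in 4 of 6, and the 1 tested epicardial marker, Wt1, lower. Skeletal muscle markers were called lower in 1 of 8 tested (Ckm, -1.76). Ckm averaged 488 TPM in cKO and 982 TPM in control hearts. All markers of that list together summed to 428 to 657 TPM in cKO and 807 to 1262 TPM in control hearts. Whether the Ckm RNA came from skeletal muscle was not tested. Erythroid markers were called in 0 of 3 and the lung epithelium marker tested in 0 of 1, and none of the 7 thymus and lymphocyte markers reached the minimum. As deposited, where 76.5% of tested genes were called higher, the counts differed: 11 macrophage, 8 fibroblast, 3 endocardial, 1 endothelial, 1 smooth muscle, 2 skeletal muscle and 1 lung epithelium marker were called higher, and Wt1 and 1 skeletal muscle marker lower. Sftpc of lung and Ptcra of thymus were at 0 in all 10 libraries.

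The heart of cKO replicate 1 stood apart in Myl7. It was also the highest for Myl4, Sln and Mybphl, but not for Kcnj3, Kcnj5, Kcna5 or Bmp10. It held 39 genes at 1 TPM or more and at least 3 times their level in any other library, against 16 to 48 in the other cKO hearts and 4 to 14 in the controls. Myl7 was among them at 5.88 times the next library, and so was Fgf12, a modulator of sodium channels, at 1.37 TPM against no more than 0.104 elsewhere. The members summed to 97.9 TPM in that heart, and over all hearts to 37.1 to 97.9 TPM in cKO and 23.5 to 34.0 TPM in control. Relative to the median gene the summed levels overlapped, at 28.6 to 70.5 in cKO and 33.4 to 41.8 in control hearts.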

How the data were processed

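RNA from 10 mouse hearts, 5 per group by the sample titles, was sequenced from total RNA, per the labels' protocols. The authors deposited 1 table of TPM, which closes each library to 1000000. The submitters' processing notes name the build mm10 and, without roles, STAR 2.7.1, Trimmomatic 0.32, HTSeq 0.11.2, bcl2fastq, Picard 1.96, FastQC 0.11.7 and DESeq2 1.22.2. The annotation release, gene lengths and strand setting are not given in the sources used here, and depth is unknown. Of 55858 gene IDs, 51460 matched GENCODE M21 without version.

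From the TPM, log2(TPM + 1) was tested with limma 3.58.1 (R 4.3.3; mean-variance trend, two-sided, Benjamini-Hochberg adjustment), as deposited and after division by a median-of-ratios size factor from 16393 genes. A gene was tested where 5 or more libraries reached 1 TPM (13282 genes). Ratios and Chmp4b were compared by two-sided exact permutation over the 252 splits. The fit was tested on simulated data. The permutations used numpy 2.4.6 under Python 3.11.15, with pandas 2.3.3.

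The members and the 21 lists were chosen with earlier results of these data known, and a list's count is no independent evidence. The list drawn up around Kcna5 is not reported here. Beside the members, up to 4 genes of each context list (up to 2 for marker lists) were named, those with the smallest adjusted p among called genes with a mean of at least 5 TPM in either group, plus fixed partners of the members. Likeness used the 3 nearest genes. Any other gene was named after its values were seen (Fgf12, Xist, Ddx3y, Gm11665, Pam, Tbx5, Nr2f2, Nr2f1, Tbx18, Sftpc, Ptcra, Strit1). Alternatives were other scalings, pseudocounts, filters and variance models, Ddx3y as a covariate, and each library left out. Settings without the 3 cKO libraries with Xist, and those combining TPM as deposited with libraries left out, were chosen after seeing the data.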

Additional observations from a re-analysis of the deposited data

Results flagged for a closer look

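In a group of 5 libraries a value was singled out where its gap to the nearest other library exceeded 0.71 of the group's range. Chance alone would give this in about 1 of 20 groups of normally distributed values. The rule was applied to TPM, which need not be normally distributed, and to more than 1 group, so a flag is no test. Myl7 in cKO replicate 1, at 51.6 TPM, met the rule with a gap of 0.890 of the range. Bmp10 in control replicate 9, at 0.0273 TPM, met it because the other 4 controls were at 0.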

How the results depend on the processing

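Myl7 and Kcnj3 kept their direction, and Kcnj3 its call, under every setting that tested them. Requiring 1 TPM in all libraries leaves both untested. Myl7 had a relative difference of 1.77 with an adjusted p of 0.0514 without a minimum TPM, 0.90 with the Ddx3y covariate and 0.92 without the 3 cKO libraries with Xist, none of them called by limma. Myl4, at 0.63 and not called, was called at 1.28 as deposited, 0.85 over nuclear protein-coding genes, 0.75 without the 100 most abundant genes, 0.65 with trimmed-mean scaling and 0.63 with at least 1 TPM required in all libraries. Leaving out each library in turn gave 0.47 to 0.80, called without cKO replicate 3 (0.79) or control replicate 4 (0.80). As deposited, Myl4 was called at 1.08 without cKO replicate 1 and at 0.83 without the 3 libraries with Xist. Kcnj5 and Kcna5 turned to 0.15 and 0.27 as deposited, 0.14 and 0.28 as deposited without cKO replicate 1, and 0.23 and 0.11 as deposited without the libraries with Xist, and Kcna5 was not called over nuclear protein-coding genes (-0.25). Leaving out each library in turn, the Myl4 to Myl7 ratio ranged from -1.26 to -0.63. The cause of these changes was not tested, except that 28821 genes in place of 13282 share the adjustment without a minimum TPM, and fewer libraries enter where some are left out. Depth is unknown, so the genes near 0 could not be given a counting limit. No paired analysis was possible because the groups share only 1 replicate number.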

Other observations

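Strit1, which encodes a small protein (DWORF) that opposes sarcolipin and phospholamban at the calcium pump, was listed at 0 in 5 of 5 cKO hearts and in 1 control heart, and reached 6.05 TPM in the other controls. It did not reach the minimum for testing, and it was named after its values were seen.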
